A study of Mus musculus with 8 samples.

Results

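The subject is how the response of macrophages to TNF differed between mice with and without the transcription factor RBP-J. For each gene the TNF response of wild-type cells was subtracted from that of Rbpj-knockout cells, separately for each replicate number, on the log2(CPM + 0.5) scale. CPM is the count of a gene's reads scaled to the total counted in genes of that library. All 8 libraries of the series were used, and 12194 of the 24421 genes in the table had at least 1 CPM in at least 2 libraries. The cells were bone marrow-derived macrophages (BMMs) from wild-type mice and from mice with floxed Rbpj and Cre driven by LysM (called RbpjKO by the submitters). Both genotypes have 2 libraries from day 0 and 2 from cells given 40 ng/ml TNF for 2 days, 4 groups in all. Because no library here is of cells kept 2 days without TNF, TNF and time in culture cannot be told apart, and "TNF response" below means day 2 with TNF minus day 0. LysM-Cre acts in myeloid cells, and the labels do not say whether the wild-type mice carried Cre. The series design speaks of 2 independent experiments. Whether its libraries are of different animals is not stated in the labels, and a p-value here reflects only how these libraries vary. A positive difference means that the level after TNF, relative to day 0, was higher in the knockout.

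RBP-J is the DNA-binding protein through which Notch receptors act on their target genes, and without Notch it can hold genes in a repressed state. TNF is an inflammatory cytokine that signals through NF-kB and MAP kinases. Together with other signals it can drive macrophage precursors towards osteoclasts, the multinucleated cells that resorb bone. RBP-J is known as a brake on that step. Osteoclast formation runs through the transcription factor NFATc1, which switches on genes of cell fusion, attachment to bone, acid secretion and matrix digestion, while factors such as IRF8 hold it back.

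Depth ranged from 9855859 reads (knockout with TNF, replicate 1) to 35653203 reads, and between 14491 and 15773 genes had a read. Rbpj itself, the targeted gene, stood at 215 and 216 CPM before and 226 and 178 CPM after TNF in wild type, and 38.9 and 31.8 CPM before and 30.03 and 21.4 CPM after TNF in the knockout, replicates 1 and 2 in that order here and throughout, with day 0 called before TNF. Each knockout library was below each wild-type library, and its difference of TNF responses was -0.36 ± 0.23. A ± after a log2 difference is the moderated standard error of limma. Of 10 genes that mark macrophages, all were detected in all 8 libraries. Csf1r, the M-CSF receptor, ranged from 1785 to 3266 CPM and Adgre1 (F4/80) from 397 to 2939, while Lyz2, the locus named LysM, ranged only from 7.25 to 102 CPM. The second principal component (32.9% of the variance) separated replicate 1 from replicate 2 in each group, and the replicate number was a term of the fit.

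Most genes that changed with TNF in wild type had a response of the same sign in the knockout, where more genes changed. Limma, at a Benjamini-Hochberg adjusted p under 0.05, had 676 genes rise with TNF in wild type (5.54% of those tested). Of these, 584 had a positive response in both knockout replicates, 402 also rose in the knockout and 1 fell. It had 574 genes fall in wild type (4.71%), of which 551 had a negative response in both knockout replicates, 440 also fell and 1 rose. In the knockout 1486 genes rose (12.2%) and 1676 fell (13.7%), of which 27.1% and 26.3% were also called in wild type, and 73% and 83.4% had the same sign in both wild-type replicates. Whether a gene passed in 1 genotype only is no test of the difference. These counts moved with single libraries. For wild type, leaving out its second day 0 library gave 169 up and 81 down. Leaving out its TNF replicate 2 gave 182 and 67, and its TNF replicate 1, 440 and 287. The same counts were 520 and 348 or 518 and 348 without knockout day 0 replicate 1 or 2, and 99 and 45 without the replicate block. The knockout counts were 736 and 719 or 527 and 367 without knockout day 0 replicate 1 or 2, 744 and 561 without knockout TNF replicate 2, and 377 and 245 without the block. For the difference of responses itself, no gene passed in limma (0% of 12194 in either direction). The smallest adjusted p were 0.0537 for Itgb3 and Mst1r and 0.0593 for Dcstamp, Pilra and Mcemp1. An unadjusted p under 0.05 was found for 2192 genes, or 18% of those tested. edgeR on the recovered reads also called 0 genes, with 2202 at an unadjusted p under 0.05. DESeq2 on the same reads called 500 positive and 497 negative differences of 11248 genes with an adjusted p (4.45% and 4.42%). The limma count moved with 1 library: without knockout TNF replicate 1, the shallowest, there were calls in both directions. That fit has 1 library in the knockout TNF group, that of replicate 2, where differences were larger. Its calls therefore have no replicate in that group, and their number is not given.

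Genes were therefore sorted by size, with no test. A gene was kept when its difference was at least 1 log2 (2-fold) in both replicate numbers with the same sign, a rule chosen after the values were seen. It held for 411 positive differences (3.37% of genes tested) and 410 negative ones (3.36%), and 32 genes passed 1 log2 in both replicates with opposite signs. Replicate 2 gave the larger difference for 72.3% of genes: 3036 genes passed 1 log2 there and 1157 in replicate 1. Genes are not replicates of each other, and across them the differences of replicates 1 and 2 had a Pearson r of 0.67 and the same sign for 72% of genes. Of the 12194 genes, 4390 were above 0 in both replicates and 4388 below 0 in both. Counts of signs in the gene lists below are to be read beside these, and counts past the rule beside the shares of 3.37% and 3.36%. At the edge of the rule lay Cyc1, of complex III, with 1.0002 in replicate 1 and 2.26 in replicate 2, and just outside it 0610038B21Rik, with 0.9999 and 1.36.

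The kept genes were then classed by their mean response in each genotype. A response was called gained where it was at least 1 log2 in size in the knockout only, lost where in wild type only, and reversed where in both with opposite signs. It was called larger or smaller where both were past 1 log2 in the same direction. Of the 821 genes, 391 were gained (233 up with TNF, 158 down), 109 lost (94 up, 15 down) and 16 reversed. A further 183 were larger in the knockout (134 up, 49 down), 55 smaller (52 up, 3 down), and 67 stayed under 1 log2 in each genotype. Thus the gained responses ran in both directions, while most of the lost or smaller ones were increases. When each replicate had to meet the class on its own, 247 were gained, 62 lost and 2 reversed, and 354 of the 821 had no class.

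**Figure D1:**
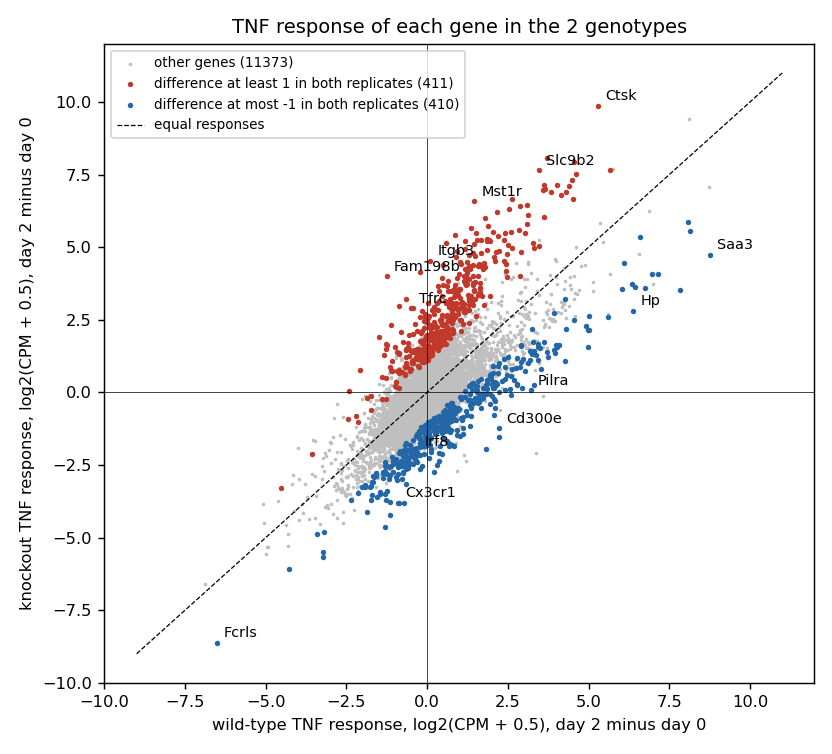
Each point is a gene, with its mean TNF response in wild type on the x axis and in the knockout on the y axis (log2(CPM + 0.5), day 2 minus day 0). Red marks the 411 genes with a difference of at least 1 in both replicates and blue the 410 genes at or below -1. The dashed line marks equal responses, and Ctsk and Itgb3 lie above it while Saa3, Hp and Pilra lie below.

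**Figure D2:**
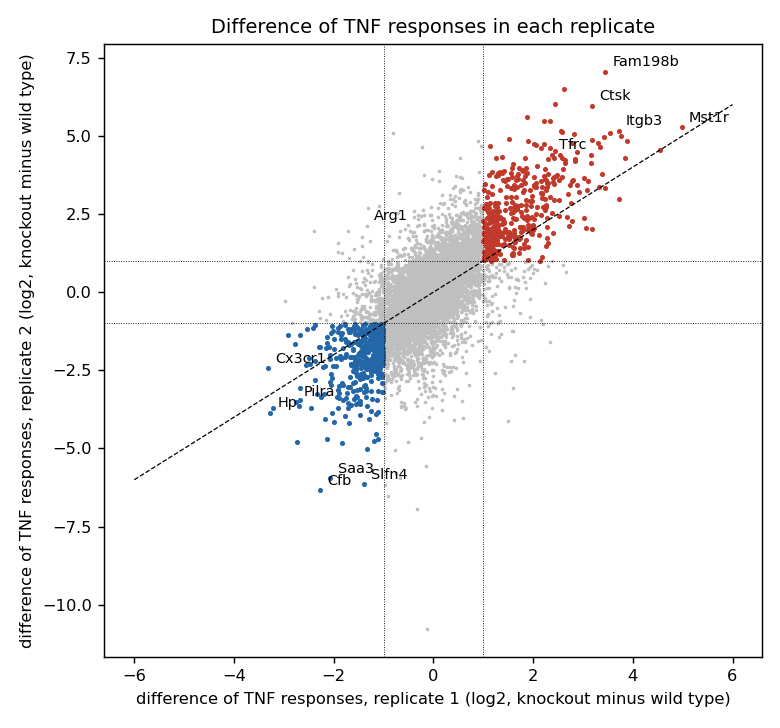
The difference of TNF responses (log2, knockout minus wild type) of each gene in replicate 1 (x axis) and replicate 2 (y axis). Red and blue mark the genes past 1 log2 in both with the same sign, dotted lines mark 1 log2 and the dashed line marks equal values, and the spread is wider in replicate 2.

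The gained increases included the integrin, iron uptake and proton pump genes of osteoclasts. Itgb3 (ENSMUSG00000020689.4, GRCm38 chromosome 11, 104608000 to 104670476), the beta chain of the vitronectin receptor with which osteoclasts attach to bone, stood at 16.4 and 62.8 CPM before and 19.8 and 60.3 CPM after TNF in wild type, and 18.9 and 47.98 CPM before and 307 and 1662 CPM after TNF in the knockout. Its 2 wild-type TNF libraries lay within the range of day 0, and both knockout TNF libraries were above every other library. The difference of responses was 4.44 ± 0.38 log2 (3.72 and 5.16 in replicates 1 and 2; limma adjusted p = 0.0537). Tfrc (ENSMUSG00000022797.16, GRCm38 chromosome 16, 32608920 to 32632794), the transferrin receptor that brings iron into cells, stood at 627 and 982 CPM before and 524 and 597 CPM after TNF in wild type, and 431 and 194 CPM before and 1882 and 2485 CPM after TNF in the knockout. It was lower with TNF than at day 0 in both wild-type replicates and higher in both knockout replicates, a difference of 3.39 ± 0.59 (limma adjusted p = 0.104). Efr3b, a scaffold of the plasma membrane lipid kinase complex, had 12.1 and 10.02 CPM before and 9.59 and 9.24 CPM after TNF in wild type, and 4.003 and 2.84 CPM before and 47.99 and 97.2 CPM after TNF in the knockout. The 4 wild-type libraries stayed between 9.24 and 12.1 CPM, both knockout TNF libraries were above them, and the difference was 4.37 ± 0.51 (limma adjusted p = 0.0855). Ccr3, an eotaxin receptor, had 4.26 and 23.96 CPM before and 7.54 and 8.18 CPM after TNF in wild type, and 8.76 and 27.4 CPM before and 89.6 and 76.5 CPM after TNF in the knockout, so that only the knockout TNF libraries were above 70 CPM.

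Some gained or larger increases began from almost no reads, and their fitted differences depend on the pseudocount. Trim54, a muscle-type ubiquitin ligase family member, had 0 reads at day 0 in each genotype, 19 reads over both wild-type TNF libraries and 470 over both knockout TNF libraries. After TNF that is a depth-scaled ratio of 50.8 (95% counting interval 32.2 to 85.2, counting error only). Nyap2 and Golga7b gave ratios of 41.7 (31.3 to 56.8) and 27.4 (15.6 to 52.4). Fjx1, a four-jointed family gene, gave 21.3 (13.3 to 36.2). At day 0 none of these 4 genes had more than 2 reads in a group. All 4 passed the filter only through the knockout TNF libraries and were picked for a large difference. The ratios therefore describe these genes and are no test of them.

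The 134 genes whose increase was larger in the knockout included digestion, fusion and acid secretion genes of osteoclasts. Ctsk (ENSMUSG00000028111.4, GRCm38 chromosome 3, 95499256 to 95509362), cathepsin K, which digests bone collagen, stood at 5.5 and 30.05 CPM before and 297 and 948 CPM after TNF in wild type, and 4.72 and 7.46 CPM before and 2355 and 15476 CPM after TNF in the knockout. Both genotypes started low and had more with TNF in every replicate, and both knockout TNF libraries were above both wild-type TNF libraries. The difference was 4.58 ± 0.66 log2 (limma adjusted p = 0.104). Slc9b2, a sodium-proton exchanger of osteoclasts, had 3.9 and 9.76 CPM before and 83.2 and 64.7 CPM after TNF in wild type, and 1.47 and 5.91 CPM before and 399 and 1276 CPM after TNF in the knockout, a difference of 4.19 ± 0.69 (limma adjusted p = 0.104). Dcstamp, a membrane protein needed for osteoclast precursors to fuse, stood at 0.838 and 1.26 CPM before and 32.7 and 42.3 CPM after TNF in wild type, and 1.61 and 2.31 CPM before and 337 and 602 CPM after TNF in the knockout. Its difference was nearly the same in the 2 replicates (2.69 and 3.14; limma adjusted p = 0.0593). Atp6v0d2, the osteoclast form of a proton pump subunit, had 13.3 and 26.01 CPM before and 225 and 334 CPM after TNF in wild type, and 12.6 and 22.1 CPM before and 1226 and 3402 CPM after TNF in the knockout, a difference of 3.05 ± 0.32 (limma adjusted p = 0.0738).

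Other genes of this class were regulators and secreted or surface proteins. Ocstamp, another fusion protein, reached 331 and 355 CPM in the knockout against 28.6 and 14.4 in wild type. Acp5, the tartrate-resistant acid phosphatase, reached 4972 and 10199 against 973 and 638 CPM, with a difference of 1.99 ± 0.70. Nfatc1, the main transcription factor of osteoclasts, had 83.4 and 67.2 CPM before and 279 and 144 CPM after TNF in wild type, and 77.8 and 88.8 CPM before and 883 and 1316 CPM after TNF in the knockout. Its difference was 2.27 ± 0.49 (limma adjusted p = 0.12). Mst1r, the receptor of macrophage-stimulating protein, had 61 reads over both wild-type TNF libraries and 1468 over both knockout TNF libraries, a depth-scaled ratio of 49.5 (95% counting interval 38.3 to 65). Its difference of 5.12 ± 0.41 was above that of Ctsk. Mst1r had 1.09 and 0.933 CPM after TNF in wild type, so it passed the filter only with the knockout TNF libraries. Its ratio is likewise no test. Akr1c18, an aldo-keto reductase family member, reached 24.05 and 60.2 CPM in the knockout against 1.46 and 4.2 in wild type, a difference of 4.06 ± 0.59. Mt3, a metallothionein that binds zinc and copper, stood at 7.26 and 7.21 CPM in wild type and 114 and 219 in the knockout after TNF, against at most 0.182 CPM in any day 0 library. Lif, a cytokine of the IL-6 family, reached 38.8 and 31.01 against 6.62 and 3.94 CPM.

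**Figure D3:**
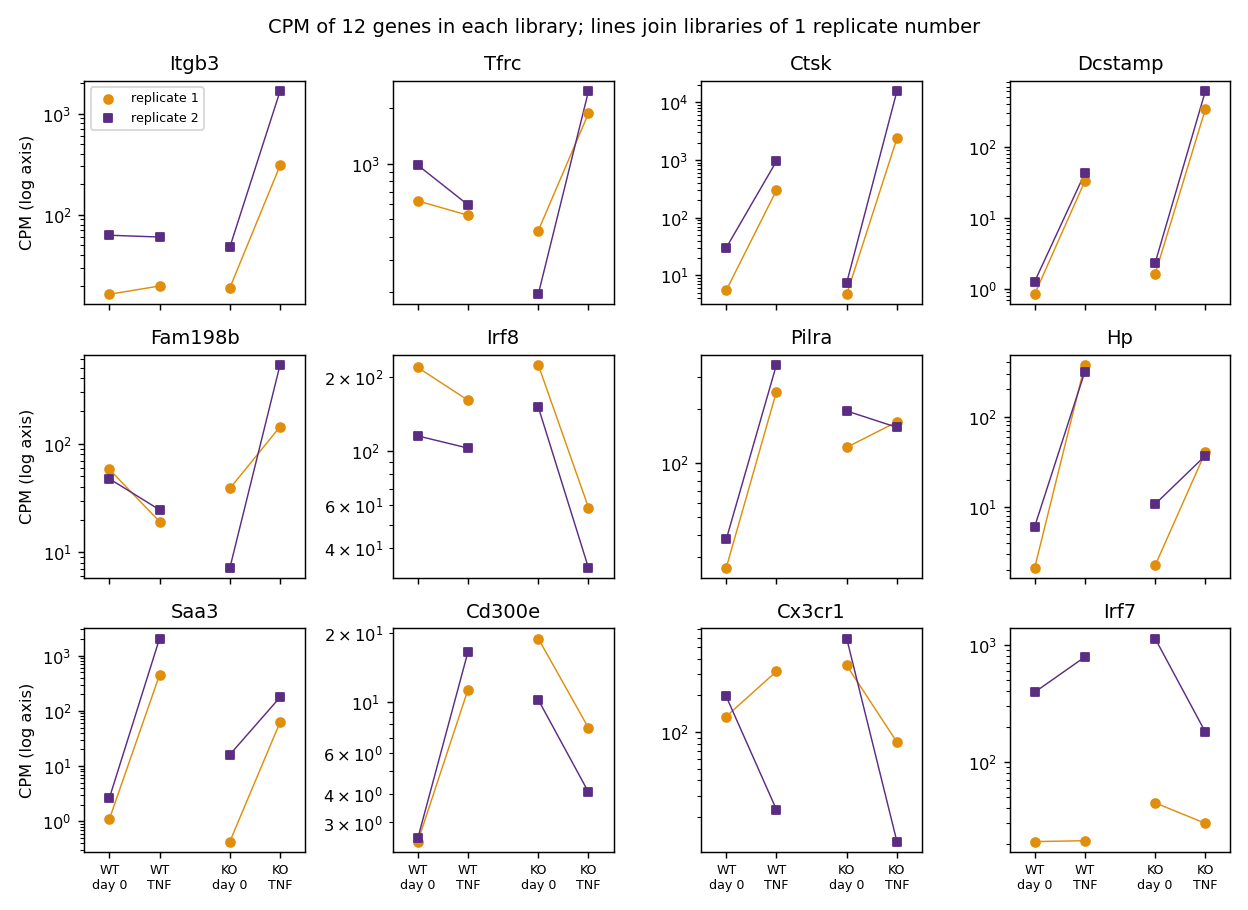
CPM (log axis) of 12 genes in each of the 8 libraries, with lines joining the libraries of a replicate number within a genotype (circles replicate 1, squares replicate 2). Tfrc has more with TNF in the knockout only. Itgb3 has more in both knockout replicates, and in wild type by a small step in replicate 1 only. Pilra has more in both wild-type replicates but 1 knockout replicate, and Irf7 differs between the replicates more than between the genotypes.

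Read by role, the osteoclast lists of resorption and of fusion and attachment held the most positive genes. Of 14 resorption genes, 9 were positive by the size rule and 0 negative, with a median difference of 1.93 log2 against 0.01 over all genes tested. The 1 member with a negative difference in both replicates was Mmp14, a membrane metalloproteinase, at -1.80 ± 1.28. Of 14 fusion and attachment genes, 7 were positive and 0 negative (median 1.52), among them the sialic acid receptor Siglec15 (3.47 ± 0.63) and the actin scaffold gene Sh3pxd2a (1.84 ± 0.44). Src, a kinase of the sealing zone, had 1.43 in replicate 1 and -0.47 in replicate 2. Of 17 activating transcription factors, Nfatc1 and Ppargc1b, a coactivator of mitochondrial genes (2.15 ± 0.35), were positive by the rule, and the list median was 0.19. The difference was above 0 in both replicates for 8 members and below 0 in both for 5, against 4390 and 4388 of all 12194 genes tested. Fosl2, an AP-1 subunit, and Jdp2, a partner of AP-1 proteins, missed the rule in replicate 1, with 0.83 and 2.68 and with 0.94 and 2.62 in replicates 1 and 2. Prdm1 (Blimp1), a repressor that lowers factors restraining osteoclasts, differed by 0.88 ± 0.28. Fos, a partner of NFATc1, stood at 0.78 ± 0.75, and Spi1 (PU.1), which specifies myeloid cells, at 0.19 ± 0.30. Of 16 restraining factors, 3 were negative and 0 positive, with Hes1 and Irf8 among them. Hes1 was near 0 in wild type, and its level was higher in the knockout at both times. Of 18 genes of TNF and RANK receptor signalling, 0 passed the rule. Tnfrsf11a, which encodes RANK, had differences of 0.45 and 2.46, and Tnfrsf1b, the second TNF receptor, -0.82 and -2.68.

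Mitochondrial genes had smaller differences, nearly all of them positive. All 36 nuclear genes of oxidative phosphorylation had a positive difference in both replicates, with a median of 0.93 and a range of 0.32 to 1.63, and 5 passed the size rule. Uqcrfs1, the iron-sulfur subunit of complex III, stood at 98.95 and 74.9 CPM before and 149.8 and 111 CPM after TNF in wild type, and 98.3 and 71.3 CPM before and 325 and 319.9 CPM after TNF in the knockout. The knockout TNF libraries were above the others, and the wild-type TNF libraries were above their own day 0 by a smaller step. Its difference was 1.36 ± 0.23 (limma adjusted p = 0.104). Cytochrome c, Cycs, differed by 1.36 ± 0.26. Of 23 genes of mitochondrial biogenesis and the TCA cycle, 21 were positive in both replicates and 3 passed the rule. Idh3a, a subunit of isocitrate dehydrogenase, had 130.1 and 96.7 CPM in wild type and 374 and 355 in the knockout after TNF, a difference of 1.96 ± 0.34. The V0 subunit gene Atp6v0d2 (3.05 ± 0.32), positive by the rule, was counted with the resorption genes above and not in the next list. Of 26 V-ATPase and lysosome genes on that list, 5 were positive by the rule, all of the pump's V1 sector, and 0 negative. The difference was above 0 in both replicates for 19 and below 0 in both for 5. Atp6v1b2, its B subunit, had 594 and 784 CPM before and 789 and 1043 CPM after TNF in wild type, and 594 and 711 CPM before and 2766 and 4953 CPM after TNF in the knockout, a difference of 2.10 ± 0.30 (limma adjusted p = 0.104). Lamp1 and Lamp2, membrane proteins of the lysosome, went the other way at -1.05 ± 0.33 and -1.20 ± 0.28. Cholesterol synthesis had 0 of 19 genes past the rule and a median of 0.82 (0.34 and 1.31 in replicates 1 and 2).

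The lost increases included paired immunoglobulin-like receptors. Pilra (ENSMUSG00000046245.13, GRCm38 chromosome 5, 137821952 to 137836281), an inhibitory receptor of myeloid cells, stood at 26.2 and 37.7 CPM before and 249 and 351 CPM after TNF in wild type, and 122 and 195 CPM before and 169 and 158 CPM after TNF in the knockout. In wild type the 2 TNF libraries were above both day 0 libraries, and in the knockout the 2 times overlapped. The knockout was already higher at day 0 (by 2.28 log2) and lower after TNF (-0.85), so both times enter the difference of -3.13 ± 0.30 (limma adjusted p = 0.0593). Its neighbours Pilrb1 and Pilrb2, activating receptors of the same family, had 18.7 and 49.95 and 17.6 and 51.2 CPM in wild type with TNF. In the knockout they had 15.9 and 18.3 and 12.1 and 19.8, with differences of -3.08 ± 0.54 and -2.81 ± 0.45. More of these differences stood at day 0, where the knockout was higher by 2.26 and 1.87 log2. After TNF it was lower (-0.83 and -0.94). Near-identical copies can share reads, so the split of reads between these genes is uncertain. The stretches before their start sites are shown. They come from RefSeq (GRCm38.p6), each on the gene's strand and covering the 250 bases before the start. Capitals mark a match to TGGGAA, the core recognised by RBP-J, or to GAAA repeated after 2 free bases, the core of the interferon-stimulated response element (ISRE), on either strand.
Pilra, chr5:137836279-137836528, minus strand: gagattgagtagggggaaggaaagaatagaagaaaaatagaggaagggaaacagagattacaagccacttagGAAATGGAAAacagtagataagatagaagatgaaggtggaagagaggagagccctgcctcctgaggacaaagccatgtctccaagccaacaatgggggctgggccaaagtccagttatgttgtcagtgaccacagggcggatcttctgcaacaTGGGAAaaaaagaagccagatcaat
Pilrb1, chr5:137858050-137858299, minus strand: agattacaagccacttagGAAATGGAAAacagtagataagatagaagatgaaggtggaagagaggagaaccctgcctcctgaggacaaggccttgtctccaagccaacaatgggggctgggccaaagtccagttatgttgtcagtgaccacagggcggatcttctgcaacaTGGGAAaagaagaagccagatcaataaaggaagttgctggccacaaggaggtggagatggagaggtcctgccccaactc
Pilrb2, chr5:137871759-137872008, minus strand: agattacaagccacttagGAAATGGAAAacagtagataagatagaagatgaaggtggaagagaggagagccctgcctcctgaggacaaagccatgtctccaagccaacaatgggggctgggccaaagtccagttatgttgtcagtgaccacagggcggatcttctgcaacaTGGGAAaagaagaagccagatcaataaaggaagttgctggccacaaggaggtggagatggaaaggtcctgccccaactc
Each holds 1 ISRE match and 1 RBP-J match in the same order, and the windows of Pilrb1 and Pilrb2 are identical at 292 of 300 bases (97.3%). Pilra was chosen for display as a lost increase. Pilrb1 and Pilrb2 were chosen because they hold an ISRE match, so that match was given by the choice.

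Other lost increases concerned fungal recognition, oxygen sensing and cytokine subunits. Clec7a (Dectin-1), the receptor for fungal beta-glucan, stood at 22.6 and 115 CPM before and 101 and 1248 CPM after TNF in wild type, and 105 and 583 CPM before and 123 and 719 CPM after TNF in the knockout, a difference of -2.52 ± 0.45 (limma adjusted p = 0.104). In each replicate the knockout libraries of the 2 times lay closer together than the wild-type ones. The knockout was higher by 2.26 log2 at day 0, and the gap after TNF was -0.26, so most of the Clec7a difference stood at day 0. Hif1a, which drives the response to low oxygen, had 175 and 258 CPM before and 443 and 519 CPM after TNF in wild type, and 154 and 179 CPM before and 175 and 167 CPM after TNF in the knockout, a difference that was almost equal in the replicates (-1.15 and -1.11). Ebi3, a subunit of IL-27 and IL-35, had 46.6 and 35.8 CPM in wild type and 16.03 and 12.4 in the knockout with TNF, a difference of -2.02 ± 0.34. The 15 lost decreases included Gpr183, an oxysterol receptor that guides cell migration. It stood at 61.4 and 92.3 CPM before and 32.6 and 9.29 CPM after TNF in wild type, and 61.6 and 43.1 CPM before and 85.8 and 91.7 CPM after TNF in the knockout, so the wild-type libraries had less with TNF and the knockout libraries more, a difference of 2.85 ± 0.72. Reps2, an endocytosis adaptor, had 25.1 and 12.7 CPM in wild type and 38.5 and 79.3 in the knockout with TNF, after 95.1 and 103 and 60.6 and 47.6 at day 0.

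The 52 smaller increases included acute-phase and complement genes. Hp (ENSMUSG00000031722.10, GRCm38 chromosome 8, 109575128 to 109579172), haptoglobin, which binds free haemoglobin, stood at 2.11 and 6.05 CPM before and 375 and 315 CPM after TNF in wild type, and 2.25 and 10.8 CPM before and 40.3 and 37.02 CPM after TNF in the knockout. The 2 knockout TNF libraries were above day 0 and below both wild-type TNF libraries, and the difference was -3.56 ± 0.79 (-3.28 and -3.85; limma adjusted p = 0.122). Saa3, serum amyloid A3, had 1.09 and 2.63 CPM before and 450.2 and 2051 CPM after TNF in wild type, and 0.429 and 16.2 CPM before and 62.3 and 177 CPM after TNF in the knockout, a difference of -4.003 ± 0.97 that was -2.06 in replicate 1 and -5.94 in replicate 2. Complement factor B, Cfb, had 0.911 and 12.4 CPM before and 281 and 3308 CPM after TNF in wild type, and 1.54 and 186 CPM before and 83.1 and 589 CPM after TNF in the knockout, and its knockout day 0 replicate 2 library stood far above the other day 0 libraries. Mcemp1, a membrane protein of mast cells and macrophages, had 0.62 and 5.3 CPM before and 34.9 and 191 CPM after TNF in wild type, and 0.929 and 7.77 CPM before and 6.6 and 32.1 CPM after TNF in the knockout, with near equal differences of -2.67 and -3.07 (limma adjusted p = 0.0593). In the acute-phase and complement list 8 of 14 genes were negative by the rule and 0 positive (median -1.29). Of these 8, Saa3, Hp, Cfb, C3 and Orm1 were smaller increases. C1ra was a lost increase (-2.04 ± 0.39). C1qa and C1qc, chains of the complement C1q protein, were decreases in both genotypes, with mean responses of -1.71 and -2.16 log2 in wild type and -3.08 and -3.46 in the knockout.

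Of 16 enzymes of lipid mediators, itaconate, nitric oxide and arginine, 4 were negative by the rule and 0 positive, with a median of -0.93. The 4 fell in different classes. Ptges, which makes prostaglandin E2, reached 801 and 682 CPM in wild type and 256 and 51.1 in the knockout from about equal levels at day 0, a difference of -2.57 ± 0.79. Irg1, which makes itaconate, reached 1112 and 1314 against 459.5 and 320.4 CPM (-2.21 ± 0.60). Both were smaller increases. Ptgs1 (COX-1), which starts prostaglandin synthesis, and Alox5ap, which serves leukotriene synthesis, were gained decreases, with differences in replicates 1 and 2 of -2.17 and -4.04 and of -1.06 and -2.29. For Ptgs1 the knockout was higher by 2.57 log2 at day 0, and the gap after TNF was -0.53. Odc1, which makes polyamines, and Hpgds, a prostaglandin D synthase, were above 0 in both replicates at 1.15 ± 0.31 and 0.94 ± 0.42. Slc7a11, the cystine transporter that feeds glutathione synthesis, stood at 4.85 and 5.79 CPM before and 469 and 1475 CPM after TNF in wild type, and 14.8 and 47.5 CPM before and 336 and 636 CPM after TNF in the knockout. The knockout was higher at day 0 by 2.22 log2 and lower after TNF (-0.85), so more of the difference of -3.07 ± 0.50 (limma adjusted p = 0.104) stood at day 0. Among receptors for chemoattractants 5 of 16 were negative and 1 positive. Fpr2, a formyl peptide receptor, reached 98.7 and 531 against 43.2 and 129.6 CPM (-2.81 ± 0.57). Ptges, Irg1, Slc7a11 and Fpr2 stayed increases in each knockout replicate.

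Pattern recognition receptors, which sense microbial molecules, had negative differences throughout. All 22 members were negative in both replicates, 10 passed the size rule and the median was -1.36. Tlr9, which senses unmethylated DNA, stood at 8.75 and 5.42 CPM before and 3.42 and 4.28 CPM after TNF in wild type, and 10.3 and 32.8 CPM before and 1.42 and 2.53 CPM after TNF in the knockout, a difference of -2.20 ± 0.71. Tlr7 and Tlr8, sensors of single-stranded RNA, differed by -1.75 ± 0.30 and -1.75 ± 0.38. Nlrp3, the inflammasome sensor, differed by -1.45 ± 0.40, and Clec4n (Dectin-2) by -2.46 ± 0.63. Tlr4, Cd14 and Ly96, which together bind endotoxin, were below 1 log2 at -0.81 ± 0.27, -0.80 ± 0.32 and -0.33 ± 0.25. Saa3, in the acute-phase group above, and Sirpb1a, a signal-regulatory protein with an activating partner, also hold an ISRE match before their start, shown here in the same way. Both were chosen for display because of that match.
Saa3, chr7:46715677-46715926, minus strand: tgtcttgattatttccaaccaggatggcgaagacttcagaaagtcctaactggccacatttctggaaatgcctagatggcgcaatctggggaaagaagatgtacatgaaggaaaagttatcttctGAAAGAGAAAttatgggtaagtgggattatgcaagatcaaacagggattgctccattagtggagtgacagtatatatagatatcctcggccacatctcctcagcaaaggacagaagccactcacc
Sirpb1a, chr3:15426428-15426677, minus strand: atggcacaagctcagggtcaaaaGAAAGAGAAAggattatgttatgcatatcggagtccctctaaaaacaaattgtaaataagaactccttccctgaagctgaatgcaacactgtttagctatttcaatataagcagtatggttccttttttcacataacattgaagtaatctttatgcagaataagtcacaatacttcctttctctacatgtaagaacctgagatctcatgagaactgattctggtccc
Sirpb1a had 2.51 and 6.83 CPM before and 6.59 and 4.62 CPM after TNF in wild type, and 2.82 and 19.5 CPM before and 1.22 and 0.949 CPM after TNF in the knockout, low levels in a family whose copies can share reads.

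The windows of 2 genes with gained increases follow, Efr3b chosen by its class and Trim54 because it holds an AP-1 match. Capitals mark RBP-J and TGANTCA, the site of AP-1, the family of Fos and Jun.
Efr3b, chr12:4038916-4039165, minus strand: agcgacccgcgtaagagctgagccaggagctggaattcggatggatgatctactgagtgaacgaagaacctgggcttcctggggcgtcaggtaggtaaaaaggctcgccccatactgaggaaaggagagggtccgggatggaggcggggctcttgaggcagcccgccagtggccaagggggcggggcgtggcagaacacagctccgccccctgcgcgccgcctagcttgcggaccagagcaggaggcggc
Trim54, chr5:31116362-31116611, plus strand: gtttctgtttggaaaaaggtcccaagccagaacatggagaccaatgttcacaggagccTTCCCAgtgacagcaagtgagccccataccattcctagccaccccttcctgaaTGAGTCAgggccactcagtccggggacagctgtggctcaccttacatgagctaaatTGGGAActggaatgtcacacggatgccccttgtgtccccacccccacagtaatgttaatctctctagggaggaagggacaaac
Efr3b holds no match to any of 6 motifs searched on both strands, and Trim54 holds 2 to RBP-J and 1 to AP-1. Windows from 250 bases before to 50 after the start were matched for 9358 genes tested, of which 307 were positive and 307 negative by the size rule. An ISRE match lay in 3.22% of all 9358 windows, 0.977% of the positive and 6.51% of the negative ones. The PU.1 site GAGGAAGT lay in 3.43%, 2.28% and 6.51%, and the AP-1 site in 5.21%, 6.84% and 8.79%. The RBP-J core lay in 23% of all windows, 24.1% of the positive and 26.4% of the negative ones. TCACGTG, the site of MITF and its relatives, lay in 6.18%, 3.26% and 3.91%, and the NF-kB site (GGGA and TTTCC with 1 free base between) in 0.438%, 0.651% and 0.651%. These shares describe letters in short windows, and binding was not measured.

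Among the 16 reversed genes, 7 had more with TNF in wild type and less in the knockout, and 9 the opposite. Cd300e (ENSMUSG00000048498.7, GRCm38 chromosome 11, 115051917 to 115062177), an activating receptor of monocytes, stood at 2.48 and 2.56 CPM before and 11.3 and 16.5 CPM after TNF in wild type, and 18.8 and 10.2 CPM before and 7.71 and 4.06 CPM after TNF in the knockout. The libraries moved up in both wild-type replicates and down in both knockout replicates, and the knockout began higher, a difference of -3.46 ± 0.54 (limma adjusted p = 0.104). Aif1 (IBA1), an actin-bundling protein of macrophages, had 28.2 and 101 CPM before and 61.9 and 188 CPM after TNF in wild type, and 77.01 and 300.0 CPM before and 39.9 and 69.98 CPM after TNF in the knockout, a difference of -2.52 ± 0.40. Ly6e, an interferon-inducible surface protein, had 148 and 880.1 CPM before and 355 and 1753 CPM after TNF in wild type, and 343 and 2761 CPM before and 221 and 582 CPM after TNF in the knockout, a difference of -2.56 ± 0.51. Nfkbiz, an atypical IkB protein that acts in the nucleus, had 9.99 and 13.7 CPM before and 20.6 and 31.8 CPM after TNF in wild type, and 15.9 and 43.8 CPM before and 10.9 and 10.97 CPM after TNF in the knockout, a difference of -2.34 ± 0.47. In these 3 genes the knockout TNF level was below the wild-type TNF level of the same replicate.

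In the opposite direction, Ckb, the creatine kinase that osteoclasts use to supply ATP, stood at 591 and 232 CPM before and 223 and 110.0 CPM after TNF in wild type, and 687 and 211 CPM before and 1269.5 and 1114 CPM after TNF in the knockout. It had less with TNF in both wild-type replicates and more in both knockout replicates, from similar day 0 levels, a difference of 2.88 ± 0.49 (limma adjusted p = 0.104). Fam198b, a Golgi-associated protein, had 58.02 and 47.6 CPM before and 19.2 and 24.6 CPM after TNF in wild type, and 38.7 and 7.2 CPM before and 143 and 531 CPM after TNF in the knockout. Its difference of 5.25 ± 1.21 was 3.45 in replicate 1 and 7.05 in replicate 2, where the knockout began lowest. Lpar2, a lysophosphatidic acid receptor, had 7.18 and 4.67 CPM before and 2.44 and 1.23 CPM after TNF in wild type, and 4.97 and 1.55 CPM before and 8.83 and 16.4 CPM after TNF in the knockout, and Hyal1, a lysosomal hyaluronidase, 42.7 and 19.4 CPM before and 14.2 and 9.58 CPM after TNF in wild type, and 23.98 and 13.4 CPM before and 34.2 and 79.1 CPM after TNF in the knockout. Their differences were 3.39 ± 0.72 and 2.78 ± 0.74.

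The gained decreases included the restraining factors Irf8 and Hes1 and the macrophage genes Mpeg1 and Cx3cr1. Of the 10 genes that mark macrophages, Mpeg1 was the 1 negative by the rule. The difference was below 0 in both replicates for 8 of them and above 0 in both for 2, with a median of -0.82. Irf8 (ENSMUSG00000041515.10, GRCm38 chromosome 8, 120736358 to 120756694), the factor that restrains osteoclast formation, stood at 218 and 115 CPM before and 160.4 and 102 CPM after TNF in wild type, and 224 and 151 CPM before and 58.6 and 33.3 CPM after TNF in the knockout. Both knockout TNF libraries were below the other 6, and the difference was -1.74 ± 0.21 (-1.48 and -1.995; limma adjusted p = 0.103). Hes1, a repressor and classical Notch target, had 0.0729 and 0.111 CPM before and 0.0561 and 0.254 CPM after TNF in wild type, and 9.18 and 7.15 CPM before and 1.83 and 1.32 CPM after TNF in the knockout, so its difference of -2.20 ± 0.47 arose where the knockout began above wild type. The wild-type libraries held 5 Hes1 reads at day 0 and 8 after TNF, too few for a decrease to be seen. After TNF Hes1 was still higher in the knockout, by 1.67 log2. Mpeg1, perforin-2 of macrophages, had 3433 and 4002 CPM before and 3839 and 7223 CPM after TNF in wild type, and 4193 and 7383 CPM before and 2009 and 2531 CPM after TNF in the knockout, with more after TNF in both wild-type replicates and less in both knockout replicates (-1.81 ± 0.43). Cx3cr1, the fractalkine receptor, had 134 and 197 CPM before and 316 and 23.03 CPM after TNF in wild type, and 354 and 589 CPM before and 82.7 and 12.6 CPM after TNF in the knockout: the wild-type replicates went opposite ways, and the standard error was wide (-2.88 ± 1.56).

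Of 25 genes of resident macrophages, 7 were negative by the rule and 0 positive, with a median of -0.95. Fcrls, an Fc receptor-like gene of resident macrophages, had 2.64 and 2.97 CPM in wild type and 0.406 and 0.316 in the knockout with TNF, from 315 and 288 and 264 and 429 at day 0. Fcgr1, the high-affinity IgG receptor, had 12.5 and 43.2 and 5.17 and 5.96 CPM with TNF. These 2 were decreases in each genotype and larger in the knockout, by -2.10 ± 0.35 and -2.26 ± 0.50. Fewer cells of a type and less RNA per cell cannot be told apart in such bulk libraries. Nlrp1b, an inflammasome sensor, was a larger decrease too, with a difference of -3.07 ± 0.64.

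Of 21 NF-kB subunits, inhibitors and targets, 2 were negative by the rule (Nfkbiz and Ier3) and 0 positive, with a median of -0.67. The difference was below 0 in both replicates for 15 and above 0 in both for 2. Nfkbia and Tnfaip3, which feed back on NF-kB, had differences of -0.02 ± 0.33 and 0.17 ± 0.44, and the subunits Nfkb1 and Rela -0.20 ± 0.27 and -0.29 ± 0.21. The inhibitor Nfkbie differed by -1.30 ± 0.39, the apoptosis inhibitor Birc3 by -1.12 ± 0.33, the mitochondrial dismutase Sod2 by -1.02 ± 0.29 and the adhesion molecule Icam1 by -0.97 ± 0.25. Relb and Nfkb2, of the alternative pathway, differed by -0.75 ± 0.31 and -0.71 ± 0.21. Ier3, an early response gene, differed by -1.49 ± 0.44. Of 15 inflammatory cytokines kept of 21, 3 were negative (Ebi3, Il18 and Tnfsf9) and 1 positive (Lif). Tnf itself stood at 18.4 and 28.4 CPM before and 38.2 and 93.04 CPM after TNF in wild type, and 22.3 and 29.9 CPM before and 24.9 and 38.9 CPM after TNF in the knockout, a difference of -1.10 ± 0.33 (limma adjusted p = 0.169). Il10, an anti-inflammatory cytokine, had 2.66 and 0.64. Of 40 cell cycle genes 0 passed the rule in either direction, with medians of -0.17 and 0.52 in replicates 1 and 2.

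Interferon genes differed between the replicates more than other lists. Of 40 type I interferon-stimulated genes, 3 were negative by the rule and 0 positive. The median difference was -0.31 in replicate 1 and -2.54 in replicate 2. The 15 GTPases of the GBP and IRG families had medians of -0.29 and -2.59, also with 3 negative. Irf7, the factor that amplifies interferon, stood at 20.8 and 393 CPM before and 21.2 and 786 CPM after TNF in wild type, and 44.6 and 1129.6 CPM before and 29.8 and 179.7 CPM after TNF in the knockout. Replicate 2 was higher than replicate 1 in every group, and its knockout day 0 library was the highest of the 8. At day 0 the list's median gap between knockout and wild type was 0.29 log2 in replicate 1 and 1.07 in replicate 2. After TNF the gap was 0.11 and -1.64. In fits that each left out 1 of the 8 libraries, the difference of Irf7 ranged from -3.18 to -1.07. The part of that 1 library in the list medians was not tested. Genes of MHC class I and the immunoproteasome, 15 in all, had 0 past the rule and medians of -0.46 and -1.70.

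**Figure D4:**
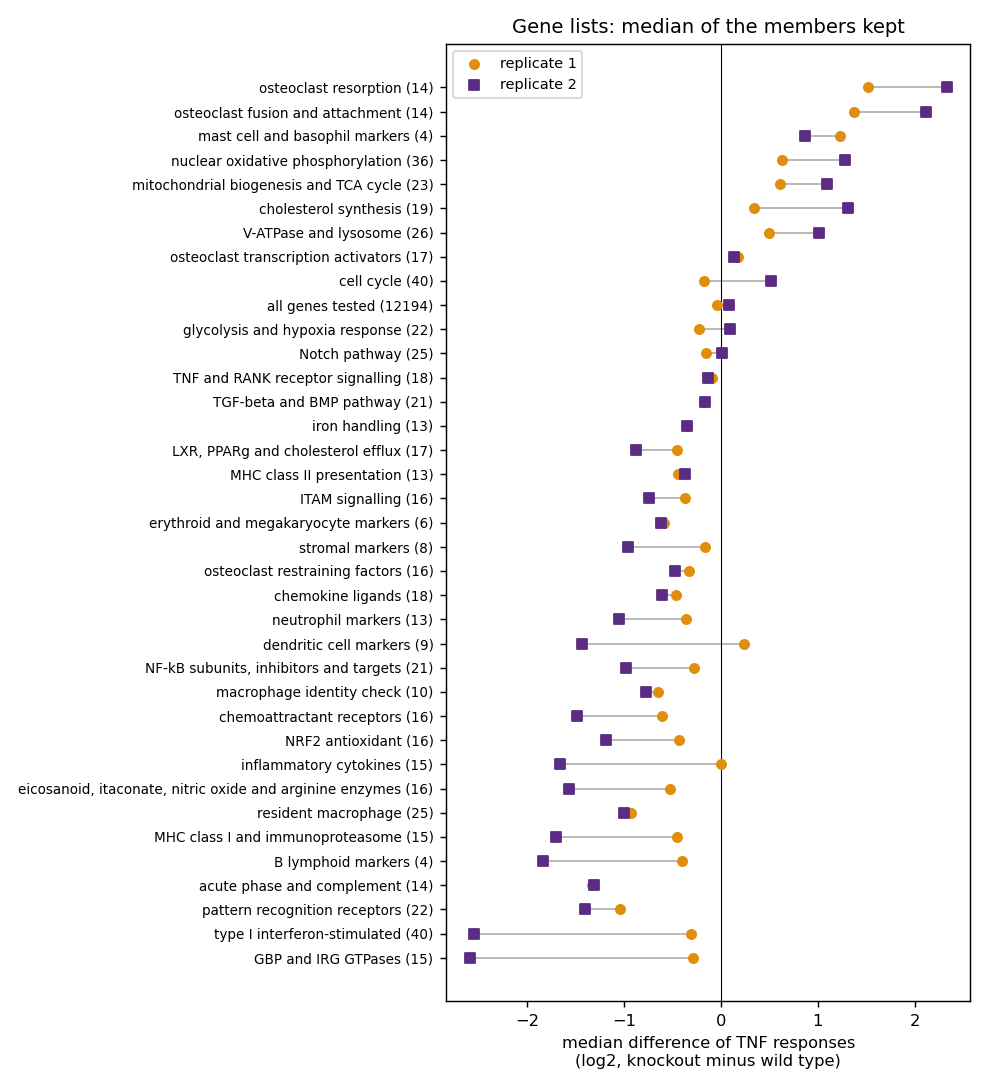
Median difference of TNF responses (log2, knockout minus wild type) of the kept members of each list, in replicate 1 (circles) and replicate 2 (squares), with the number of genes in brackets. Osteoclast resorption lies highest, at 1.52 and 2.33, and the interferon and GBP lists have the widest gap between replicates.

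**Figure D5:**
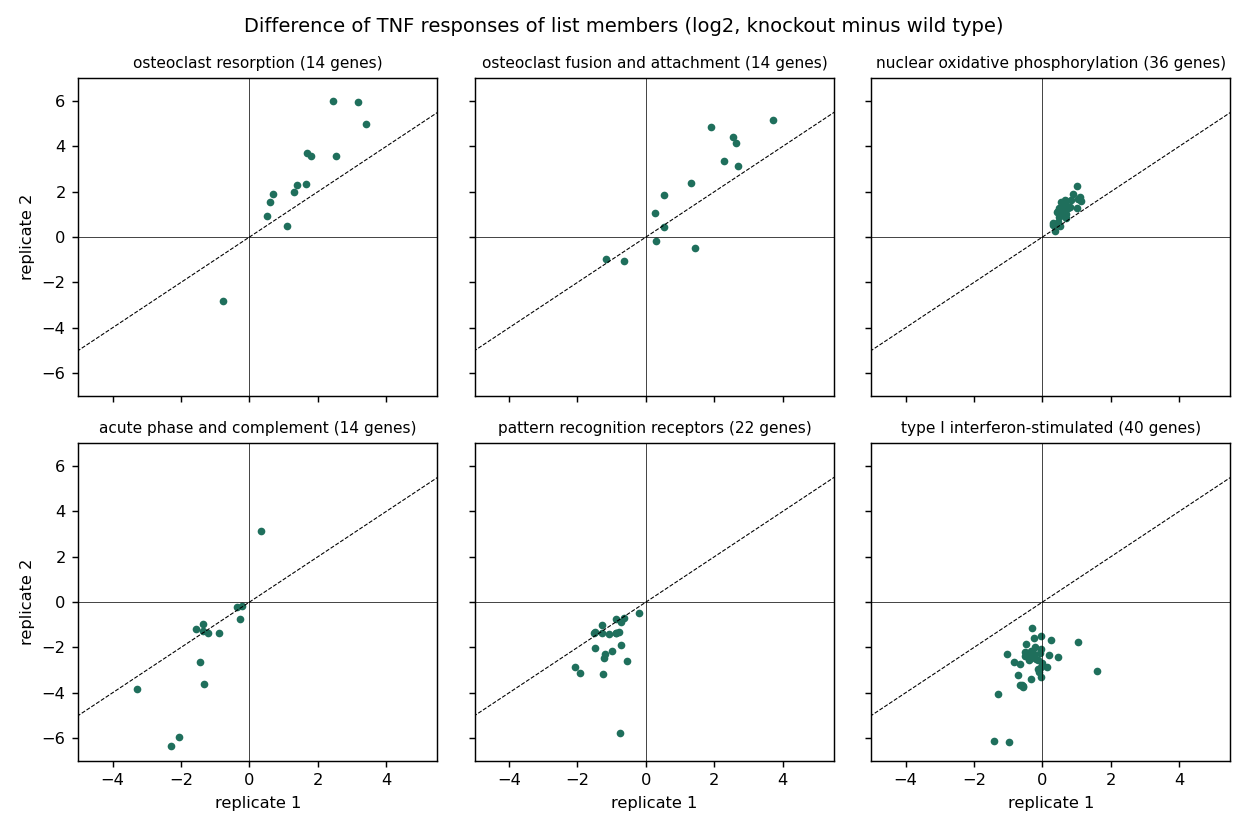
Each point is a list member, with its difference in replicate 1 on the x axis and in replicate 2 on the y axis (log2), and the dashed line marks equal values. All 36 oxidative phosphorylation genes lie in the positive quadrant and all 22 pattern recognition receptors in the negative one, while the interferon genes spread along the replicate 2 axis.

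A difference of responses can come from day 0 as well as from day 2. Among the 411 positive genes the gap between genotypes was greater at day 0 than after TNF in 16, and for 384 it was under 1 log2 at day 0. Among the 410 negative genes those counts were 97 and 318. Some genes past the rule were neighbours on a chromosome, in 8 runs of 3 or more of the genes tested. The 1 positive run held 5 genes on chromosome 1 (157135182 to 160080208): Rasal2, 2810025M15Rik, Sec16b, 4930523C07Rik and 4930562F07Rik. Cd300ld, Cd300e and Cd300lf, receptors of 1 family, formed a negative run on chromosome 11 (114982274 to 115133992). C1rl, C1ra and C1s1, serine proteases of the complement cascade or close to it, formed another on chromosome 6 (124493113 to 124542359). Ly6e, Ly6i and Ly6a formed one more on chromosome 15 (74955051 to 74998031). The other 4 negative runs were Zcwpw1 with Pilra, Pilrb1 and Pilrb2, Grap2 with Fam83f and A430088P11Rik, Spaca6 with Fpr1 and Fpr2, and Sirpb1a with Sirpb1b and Gm5150.

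Markers of other cells were measured beside these results, and their part in them was not tested. The summed level of 13 neutrophil markers in the table ranged from 194 to 939 CPM in wild type at day 0 and 126 to 231 with TNF. In the knockout it ranged from 301 to 1115 and from 65.6 to 78. Of 13 kept, 4 were negative by the rule, among them Mmp8 (-2.30 ± 0.64) and Camp (-1.55 ± 0.30). Dendritic cell markers summed to between 18.1 and 22.7 CPM in wild type and between 25.7 and 111 in the knockout at day 0. With TNF they summed to 63.8 to 582 and 116 to 449, and 0 of 9 kept were past the rule. B lymphoid markers summed to at most 11 CPM and mast cell and basophil markers to at most 11.9 in any library, and 3 haemoglobin genes were at 0 in all 8. The 12 erythroid and megakaryocyte markers summed to between 278 and 375 CPM in wild type and between 305 and 385 in the knockout at day 0. With TNF they summed to 94.1 to 166 and 39.6 to 161, and 2 of 6 kept were negative by the rule, Ppbp (-1.57 ± 0.72) and Itga2b (-1.44 ± 0.58), both of platelets and their precursors. T and NK cell markers summed to at most 19.9 CPM, and stromal markers ranged from 5.73 to 233 CPM.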

How the data were processed

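Poly-A RNA of 8 libraries was measured, and the deposited table holds CPM made by the authors. The tools named in the submitters' processing notes are HISAT2, HTSeq, edgeR and fastp, and the build is mm10. Their versions, settings and annotation are not given in the sources used here. Every value was a whole multiple of 1 read within 0.01 (100% of values), so reads were recovered for the count tests. Of the symbols, 27 had been turned into dates. Gene positions are from GENCODE M21 (GRCm38), in which 23350 symbols were found.

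Genes that reached 1 CPM in 2 or more libraries entered limma 3.58.1 (lmFit, eBayes with trend, 2-sided, R 4.3.3) on log2(CPM + 0.5), with Benjamini-Hochberg adjustment over 12194 genes. This scale understates the change of low genes. The terms were the 4 groups and the replicate number as a block, which left 3 residual degrees of freedom. The block was chosen because differences were taken per replicate number, with earlier results of these data known in which calls were more numerous with it. The design speaks of 2 independent experiments, but no label ties the number to them. The check of pairing gave correlations of replicate deviations between 0.577 and 0.805 over 6 pairs of groups, across genes. edgeR 4.0.16 (quasi-likelihood, TMM) and DESeq2 1.42.0 were alternatives. The fits with the block were also run on simulated data in which all groups shared the same replicate shift. Such data cannot tell how the fits behave where the difference itself varies between replicates, as it did here.

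The lists were chosen with earlier results of these data known, as were 30 genes to be named whatever their values. Other named genes were to be up to 5 for each class and direction with a group mean of at least 5 CPM, and up to 3 for each list, among those past the limma threshold. As none passed, the size rule (1 log2 in both replicates) took the place of the threshold, and classes, motifs and promoters were likewise chosen after values were seen. Some genes outside this rule are named as list members. Intervals are 95% counting intervals and cover counting error only. Some results that belong to these lists are not reported here.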

Additional observations from a re-analysis of the deposited data

Results flagged for a closer look

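Of 123 named genes, 29 had every wild-type replicate move one way with TNF and every knockout replicate the other. Apart from 30 genes fixed beforehand, the named genes were picked for differences past the size rule, some of them as reversed. The count thus follows in part from that choice, and the share over all genes tested is not given. For these 29 the difference of responses passed no limma test at an adjusted p of 0.05. They are given with the fitted difference (log2, knockout minus wild type). The positive ones were Fam198b at 5.25, Efr3b at 4.37, Ppm1e at 3.44, Lpar2 at 3.39, Tfrc at 3.39, Ckb at 2.88, Gpr183 at 2.85, Hyal1 at 2.78, the vessel growth factor Angpt2 at 2.04 and the mitochondrial aspartate-glutamate carrier Slc25a13 at 1.89.

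Interferon-inducible genes were negative: Slfn4 at -3.77, Mx1 at -2.67, Ly6e at -2.56, Iigp1 at -2.53, Irf7 at -2.12 and Isg20 at -1.66. For some of the listed genes a wild-type step was small, so that little more than its sign was opposite. In wild-type replicate 1 Irf7 went from 20.8 to 21.2 CPM, Isg20 from 1.02 to 1.07 and Cd86 from 9.11 to 9.65. In wild-type replicate 2 Efr3b went from 10.02 to 9.24 CPM. Immune receptors, macrophage and granule genes were negative too: Cd300e at -3.46, the T cell costimulator Cd86 at -2.79, Aif1 at -2.52, Lst1 at -2.48, the neutrophil collagenase Mmp8 at -2.30 and Mpeg1 at -1.81. So were Nfkbiz at -2.34, Ebi3 at -2.02, Bend6 at -1.96, the glycolysis activator Pfkfb3 at -1.80, Smad6, an inhibitor of BMP signalling, at -1.67, Ier3 at -1.49 and the BMP receptor Acvrl1 at -1.37.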

How the results depend on the processing

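Without the replicate block limma again called 0 positive and 0 negative differences, with 689 genes at an unadjusted p under 0.05, and edgeR called 0 with and without the block. Limma also called 0 with a pseudocount of 0.1, with no filter, with at least 5 CPM in 2 libraries and with median-ratio scaling. With a pseudocount of 1 it called 1 positive difference, which was gained (1). Quantile normalization gave 6 positive and 2 negative (2 gained, 1 lost, 4 larger, 1 smaller). DESeq2 with the block gave 500 and 497 (543 gained, 164 lost, 28 reversed, 191 larger, 49 smaller). DESeq2 without the replicate block gave 51 and 27 (45 gained, 8 lost, 22 larger, 1 smaller). Leaving out 1 library gave 0 to 238 positive and 0 to 120 negative calls, 0 to 221 gained, 0 to 33 lost, 0 to 15 reversed, 0 to 82 larger and 0 to 7 smaller, with every count above 0 from leaving out knockout TNF replicate 1. Of those 358 genes 243 were also past the size rule. The cause of these shifts was not tested.

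By the size rule, the settings that keep all libraries gave 324 to 466 positive and 328 to 529 negative genes, and requiring each class in both replicates gave 247 gained, 62 lost, 2 reversed, 125 larger and 31 smaller. With replicate 2 alone or replicate 1 alone, the counts were 1554 or 525 positive, 1482 or 632 negative, 1271 or 466 gained, 593 or 166 lost, 99 or 10 reversed, 308 or 250 larger, 208 or 78 smaller and 557 or 187 under 1 log2 in each genotype. These were settings added after the data were seen. No list median changed sign under either scaling. Among 123 named genes 7 changed sign under some setting. Arg1 (main value 0.39) did so without the block in edgeR (-1.03) and DESeq2 (-0.98), and when 1 library was left out (-1.60 to 2.39). The other 6 did so only when 1 library was left out, with ranges of -0.052 to 1.60 for Fos, -0.94 to 0.69 for Myc, -1.02 to 0.52 for Cxcl10, -1.14 to 0.071 for Ccr2, -2.29 to 0.11 for Egln3 and -2.15 to 0.026 for Fabp4.

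Depth limits the genes with few reads, such as Trim54 and Golga7b, and the shallowest library is in the knockout TNF group. With 2 libraries a group, a difference that missed the threshold is not shown to be absent.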

Other observations

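Of 13 iron handling genes, Tfrc and the metalloreductase Steap4 were positive by the size rule and Hfe, which tempers iron uptake, was negative (-1.57 ± 0.41). Steap4 differed by 2.02 in replicate 1 and 4.75 in replicate 2, from less than 0.2 CPM in each day 0 library. Of 16 NRF2 antioxidant genes, Mt3 was positive and Slc7a11 negative, 12 were below 0 in both replicates and the median was -0.88. Among 22 glycolysis and hypoxia genes 4 were negative, Hif1a and Pfkfb3 among them, with a median of -0.11. Of 21 genes of the TGF-beta and BMP pathway, 2 were positive and 2 negative. Tgfbr1, the type I TGF-beta receptor, stood at 217 and 354 CPM before and 248 and 261 CPM after TNF in wild type, and 329.9 and 1027 CPM before and 1132 and 1778 CPM after TNF in the knockout.

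Of 25 Notch pathway genes kept, Hes1 was the 1 negative by the rule, against 3.36% of all genes tested, and the median was -0.14. A count of 1 or 2, here and in the lists that follow, is no result about a list. ITAM signalling, which relays osteoclast costimulation, had 1 of 16 negative (Fcgr1), 12 below 0 in both replicates and a median of -0.48. Chemokine ligands had 2 of 18 negative, Cxcl16 and Ccl6. The 13 genes of MHC class II presentation had 1 negative, Cd86, and 12 below 0 in both replicates, and their median gap between knockout and wild type was 1.06 log2 at day 0 and 0.32 with TNF.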
